A study of Mus musculus with 55 samples.

Results

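Open chromatin was compared between lung tumour cells of the genotypes PRMK and PRM. It was measured by ATAC-seq, in which a transposase cuts accessible DNA and inserts sequencing adapters there. The comparison used 4 of the 55 mouse samples of the series: PRMK replicates 1 and 2, and PRM replicates 1 and 2. Their deposited peak lists held 139224 peaks, of 139710 over all 6 ATAC lists of the series. The plasmids of both genotypes included a guide against Rb1 (sgRb1) and a Myc transgene (MSCV-Myc-IRES-Luc2). PRMK cells carried in addition a guide against Kmt2c (sgKmt2c), and PRM cells are the genotype without it. Tumours grew in recipient mice after cells were injected into the left lung lobe, and organoids from those mice were cultured for 3 days before 20000 cells went into each ATAC library. The labels do not say whether replicates came from separate animals, and an edited gene is given only as the guide that the cells received. CUT&Tag libraries (2 per mark and genotype) and RNA libraries (3 per genotype) of the same genotype names gave the other readouts. For H3K4me2, H3K4me3 and KMT2C the PRMK libraries carried 1 more guide, against Meis2 in replicate 1 and scrambled in replicate 2.

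The lists differed widely in length within each genotype. PRMK replicate 1 held few peaks, 593, and PRMK replicate 2 held 54201. PRM replicate 1 held 64596 peaks and PRM replicate 2 held 19834. The covered length was 0.827 and 73.8 Mb in the PRMK lists and 95.2 and 29.7 Mb in the PRM lists. No source used here states the read depth, so the number of peaks in a list is not read as a number of open sites. Equal numbers of the strongest peaks were compared instead, ranked by the score in column 13 of each list. All 4 lists were compared at 565 peaks, the number of scored peaks in PRMK replicate 1, and PRMK replicate 2 was compared with both PRM replicates at 19815 peaks, the number in PRM replicate 2. The second comparison therefore has 1 PRMK library and no spread within PRMK, and its values are descriptions of these libraries.

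KMT2C, also called MLL3, is a histone methyltransferase that, with its relative KMT2D, places methyl groups on lysine 4 of histone H3, mainly the single methyl group (H3K4me1) found at enhancers. Active promoters carry the trimethylated form (H3K4me3). Small cell lung cancer is a neuroendocrine tumour in which RB1 is usually lost. Its neuroendocrine state is set by lineage transcription factors, and its cells can also take up other states. Accessible DNA at a promoter shows that the site is free of tightly packed nucleosomes, and it is neither the same as transcription nor a measure of it.

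The promoters below show what kind of sequence lay under the promoter peaks described later. Epcam and Krt7 were held by PRMK replicate 2 and by no PRM peak, and Sox2 and Nrp2 were held by both PRM replicates and by no PRMK peak. Each is the reference promoter of RefSeq on GRCm38.p6 from 250 bases before to 50 bases after the start site, on the plus strand, and the capitals mark GC boxes (GGGCGG) and CCAAT boxes (CCAAT) found on either strand.
Epcam, chr17:87635729-87636028: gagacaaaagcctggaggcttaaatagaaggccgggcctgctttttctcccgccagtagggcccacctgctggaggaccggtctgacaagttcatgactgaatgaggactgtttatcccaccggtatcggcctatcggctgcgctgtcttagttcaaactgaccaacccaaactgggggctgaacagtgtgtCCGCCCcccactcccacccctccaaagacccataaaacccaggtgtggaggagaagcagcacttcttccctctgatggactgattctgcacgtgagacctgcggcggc
Krt7, chr15:101412153-101412452: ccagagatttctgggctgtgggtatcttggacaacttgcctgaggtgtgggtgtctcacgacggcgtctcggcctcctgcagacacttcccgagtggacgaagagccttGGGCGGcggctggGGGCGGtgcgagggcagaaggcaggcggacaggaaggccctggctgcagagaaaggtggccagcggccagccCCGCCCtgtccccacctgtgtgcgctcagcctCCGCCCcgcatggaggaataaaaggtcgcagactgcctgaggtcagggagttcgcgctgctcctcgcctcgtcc
Sox2, chr3:34649745-34650044: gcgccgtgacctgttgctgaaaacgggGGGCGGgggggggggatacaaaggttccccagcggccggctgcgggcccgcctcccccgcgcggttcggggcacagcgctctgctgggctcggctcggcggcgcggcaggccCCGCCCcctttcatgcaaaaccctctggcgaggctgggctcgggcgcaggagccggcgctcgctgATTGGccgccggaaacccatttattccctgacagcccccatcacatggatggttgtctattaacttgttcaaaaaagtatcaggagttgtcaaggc
Nrp2, chr1:62703067-62703366: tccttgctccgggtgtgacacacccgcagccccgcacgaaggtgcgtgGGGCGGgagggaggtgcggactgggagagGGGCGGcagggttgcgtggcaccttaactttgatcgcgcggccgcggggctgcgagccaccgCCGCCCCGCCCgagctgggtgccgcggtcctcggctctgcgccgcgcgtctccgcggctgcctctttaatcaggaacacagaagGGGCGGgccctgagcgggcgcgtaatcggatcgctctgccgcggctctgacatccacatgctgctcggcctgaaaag

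The PRMK replicate 2 peak at Epcam ran over chr17:87635781-87637270 and covered 248 of the 300 bases. The one at Krt7 ran over chr15:101410931-101412780 and covered the whole window. At Sox2 the PRM replicate 1 peak covered all 300 bases and the PRM replicate 2 peak 214 of them, and at Nrp2 the covered lengths were 276 and 300 bases. The GC content was 57% in the Epcam window, 66.3% in those of Krt7 and Sox2 and 70.7% in that of Nrp2. A GC box was found in all 4 windows and a CCAAT box in that of Sox2.

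Promoters and distal sites were first compared over the 4 lists. A promoter peak lay within 1 kb of an annotated start site. Among the 565 strongest peaks the promoter share was 57.7% in PRMK replicate 1 (Wilson 95% interval 53.6 to 61.7) and 88.5% in PRMK replicate 2 (85.6 to 90.9). It was 78.8% in PRM replicate 1 (75.2 to 81.9) and 90.3% in PRM replicate 2 (87.5 to 92.4). Replicates of 1 genotype thus lay at least as far apart as the genotypes did, and the intervals cover counting error only. The means were 73.1 ± 21.8% in PRMK and 84.5 ± 8.13% in PRM (SD, n = 2 each), a difference of -11.4 percentage points with an exact two-sided permutation p of 0.667, where the smallest p that 2 against 2 allows is 0.33.

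With PRMK replicate 1 set aside, the shares followed rank and library rather than genotype. At 1000 peaks they were 89.5% in PRMK replicate 2, 76.0% in PRM replicate 1 and 89.4% in PRM replicate 2. At 5000 peaks they were 79.6%, 64.6% and 77.9% in the same order, and at 19815 peaks 44.5%, 44.9% and 52.1%. PRMK replicate 2 was next to PRM replicate 2 among the strongest peaks and next to PRM replicate 1 among the weaker ones.

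**Figure D1:**
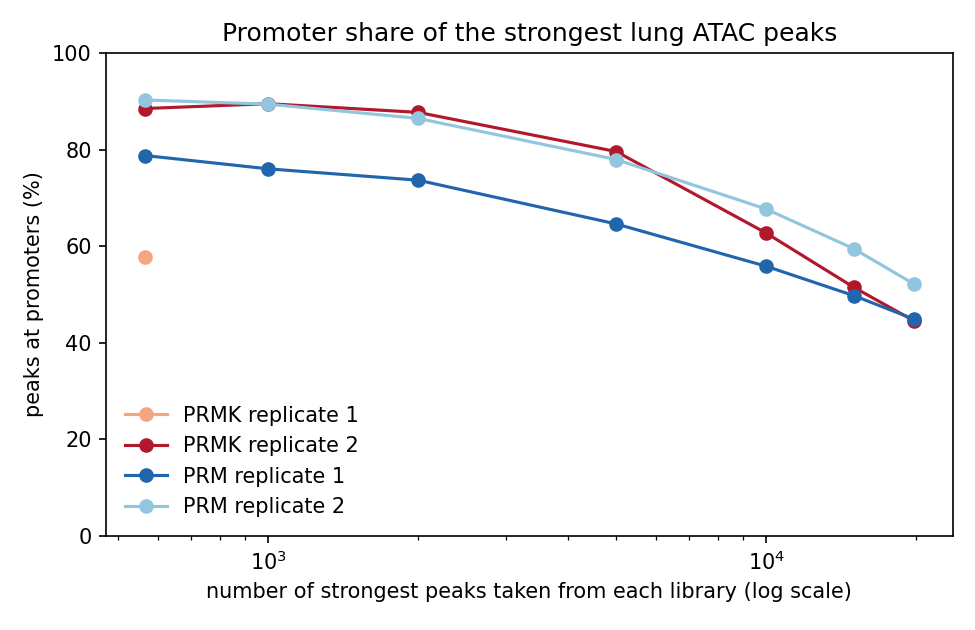
The share of peaks at promoters (percent, y axis) against the number of strongest peaks taken from each library (log scale, x axis), with 1 line per library and 1 point for PRMK replicate 1, whose list ends at 565 scored peaks. PRMK replicate 2 lies on PRM replicate 2 at 1000 peaks (89.5% and 89.4%) and on PRM replicate 1 at 19815 (44.5% and 44.9%).

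PRMK replicate 2 shared most of its strong promoters with PRM and few of its strong distal sites. Of its 19815 strongest peaks, 46.0% overlapped a strongest peak of PRM replicate 1 and 45.5% one of PRM replicate 2, by at least 1 bp. At promoters these shares were 73.0% and 75.7%, and at distal sites 24.4% and 21.4%. Taken from the PRM side, 43.6% of the PRM replicate 1 peaks and 49.2% of the PRM replicate 2 peaks were shared with PRMK replicate 2. The PRM replicates shared more with each other, 55.3% of replicate 1 peaks and 63.5% of replicate 2 peaks, and 35.5% and 49.3% at distal sites. The mean overlap between genotypes was 13.3 percentage points lower than between the PRM replicates (difference -13.3). This gap was -5.82 points at 5000 peaks, -2.17 at 2000 and -1.50 at 1000. Among the 565 strongest peaks the shares between PRMK replicate 2 and the PRM replicates, in either direction, were 48.7 to 51.5%, against 55.2 and 56.5% between the PRM replicates. There is no matching PRMK pair at this number of peaks, so whether the gap exceeds the spread within PRMK was not tested.

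The short list did not place PRMK replicate 1 clearly with its own genotype. Of its 565 peaks, 52.6% overlapped a peak of PRMK replicate 2, and 41.4% and 40.9% overlapped PRM replicates 1 and 2. From the other side, 43.0% of the PRMK replicate 2 peaks were in PRMK replicate 1, fewer than the 49.9% and 51.3% that were in PRM replicates 1 and 2. Of the 1214 regions made from all 4 sets, 43 were held by both PRMK libraries and by no PRM library (3.54%), 78 by both PRM libraries and by no PRMK library (6.43%), and 133 by all 4 (10.96%). The 6 promoter regions of highest score among the 43 each met a peak of lower rank in at least 1 PRM list. One was Klf13, which encodes a Krüppel-like factor, with scores of 42 and 70 in PRMK replicates 1 and 2 and 47 and 80 in PRM replicates 1 and 2. The 6 promoters of highest score among the 78 included Jun, an AP-1 subunit, with 42 in PRMK replicate 2 and 103 and 105 in PRM, and Myh9, a non-muscle myosin, with 45 against 89 and 120. Scores are not scaled between libraries, so these differences are of rank.

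**Figure D2:**
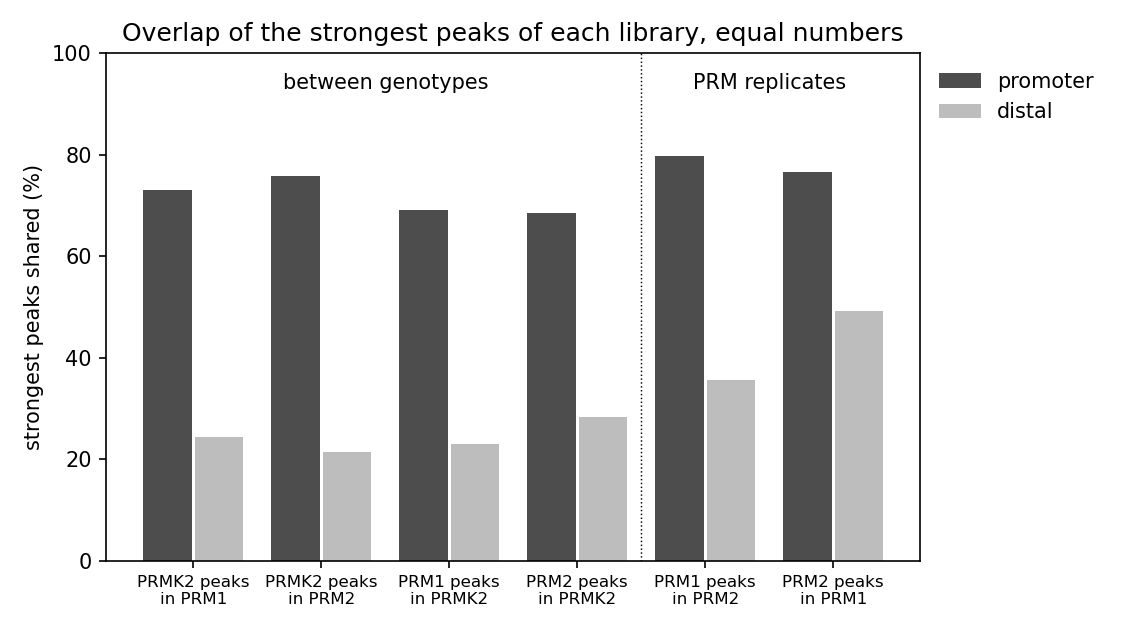
Share of the 19815 strongest peaks of 1 library that overlap one of another (percent, y axis), at promoters and at distal sites, for each direction of the 3 library pairs. At distal sites the PRMK replicate 2 peaks shared with PRM reach 24.4% and 21.4%, and the PRM replicates share 35.5% and 49.3% with each other.

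The regions of highest score were held by every library. A region over the first part of Sfi1 at chr11:3126381-3151750 had scores of 239 and 295 in PRMK replicates 1 and 2 and 349 and 283 in PRM replicates 1 and 2. The neighbouring region chr11:3151751-3180284 had 278 and 342 in PRMK and 384 and 425 in PRM. Others held by all 4 lists lay at Hjurp, which encodes the chaperone that loads the centromeric histone variant, Satl1 and Fkbp2, and near Scaf8. The merged regions at Sfi1 and Satl1 are long (chrX:112352511-112452830 for Satl1). Regions prone to false signal were not left out of any list here. Whether these regions of very high score are open chromatin was therefore not tested.

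The merging of the 3 longer lists gave 31941 regions, 11194 at promoters and 20747 distal. PRMK replicate 2 alone held 8773 of them (27.5%), both PRM replicates and not PRMK replicate 2 held 3142 (9.84%), and all 3 libraries held 5955 (18.6%). PRM replicate 1 alone held 6881 (21.5%) and PRM replicate 2 alone 4835 (15.1%). A region of 1 library alone was therefore common in each genotype. Shared regions were promoters in the main, 43.7% of promoter regions and 5.10% of distal ones being held by all 3.

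Regions that also had no weaker peak in the other genotype were then set apart. They are called PRMK2-only where a strongest peak of PRMK replicate 2 met no PRM peak of any rank, and PRM-only where a region strong in both PRM replicates met no PRMK peak of any rank. There were 7416 PRMK2-only peaks, 37.4% of the 19815, of which 1155 lay at promoters and 6261 were distal. They made up 13.1% of the strong promoter peaks of that library and 56.9% of its strong distal peaks. There were 2410 PRM-only regions, 26.5% of the 9097 regions strong in both PRM replicates, 936 at promoters and 1474 distal. They made up 15.2% of such promoter regions and 50.4% of such distal regions. In both directions the difference lay at distal sites more than at promoters. The PRM replicates also differed from each other in this way. Of strong PRM replicate 1 peaks, 20.3% at promoters and 64.5% at distal sites met no PRM replicate 2 peak of any rank. Against PRMK replicate 2 these shares were 24.1% and 65.7%. Of strong PRM replicate 2 peaks, 15.9% and 33.9% met no PRM replicate 1 peak, and 25.1% and 60.4% no PRMK replicate 2 peak. PRMK2-only peaks are single peaks of 1 library and PRM-only regions are merged from 2 libraries, so their widths are not compared.

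Both classes came from the weaker end of the lists. PRMK2-only peaks were 6.78% of the strongest 5000 peaks of PRMK replicate 2, 1.40% of the strongest 2000 and 0.40% of the strongest 1000. PRM-only regions were 10.3%, 4.41% and 2.00% of the regions strong in both PRM replicates at the same numbers. Without PRM replicate 1 the PRMK2-only share was 54.4%, and without PRM replicate 2 it was 42.3%. The PRM-only share was 45.3% without PRM replicate 1 and 49.0% without PRM replicate 2, where 1 PRM library suffices, and 58.7% where overlaps had to cover at least 50% of each interval. Reading absence from a list depends on how long that list is, and PRM replicate 2 held fewer peaks than PRMK replicate 2.

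The libraries also differed by chromosome. Of the 21 chromosomes, 10 took shares of the 19815 strongest peaks that differed by more than 1.5 times among the 3 libraries. Chromosome 5 held 6.93% in PRMK replicate 2, against 4.15% and 2.37% in PRM replicates 1 and 2. Chromosome 10 held 5.17% in PRMK replicate 2 and 2.22% and 4.82% in PRM, and chromosome 2 held 8.29% in PRMK replicate 2 and 8.59% and 14.5% in PRM. Chromosome 14, with 2082 of the 48029 start sites, held 7 and 104 peaks in the whole PRMK lists and 238 and 119 in the PRM lists, and chromosome X was equally bare. Whether DNA copy number differs between the libraries was not tested. On the 11 other chromosomes lay 3932 PRMK2-only peaks and 1531 PRM-only regions, and the PRMK2-only share there was 32.5%. Chromosome 5 held 3 of the 6 PRMK2-only promoter peaks of highest score, nearest to Paxip1, Nos3 and Rnf4. The one near Paxip1 lay 690 bp from a start site of that gene. Within 1 kb of the sites annotated for Paxip1 the highest scores were 45 in PRMK replicate 2 and 34 and 52 in PRM. The gene thus counted as strong in all 3 libraries. The 45 is also the score of the PRMK2-only peak, so a second PRMK peak there is not shown. The other PRMK2-only promoter peaks of these 6 were at Csrp2, Snhg8 and Gm32194, and all 6 scored between 40 and 45. The PRM-only promoters of highest score were at Gm40449 (92 and 86 in PRM replicates 1 and 2), Desi2 (77 and 85) and Chrnb1 (69 and 82), which encodes a muscle acetylcholine receptor subunit, then Fam90a1b, Eml6 and Gm34502.

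Gene promoters were read next. Of 21887 protein-coding genes, 34.1% had a strong promoter peak in PRMK replicate 2, and 35.1% and 37.0% in PRM replicates 1 and 2. In PRM replicate 2 every scored peak counted as strong, down to a score of 0. All 3 libraries had a strong promoter peak at 5430 genes (24.8%). A strong PRMK replicate 2 peak with no PRM promoter peak was found at 663 (3.03%), and strong peaks of both PRM replicates with no PRMK peak at 833 (3.81%). Such genes are called PRMK2-only and PRM-only as well, and these percentages are the background for the gene lists below. Scores are given for PRMK replicate 2, then PRM replicates 1 and 2. PRMK replicate 1 had a promoter peak at 3 list members: Myc (10), Gapdh (27) and Kmt2b (30). For 86 of 267 list entries the annotation used here gave the gene's ends with no start site or strand, and a peak within 1 kb of either end counted. Of the genes named below these include Myc, Insm1, Ncam1, Esrp1, Ovol1, Snai2, Cdh2, Pbx3, Pknox1, Pknox2, Slit1 and the Hoxb genes 3, 5, 6, 7 and 9, whose peaks may lie at the far end of the gene. The 10 uneven chromosomes hold the PRMK2-only genes Meis3, Dll3, Dnmt3l, Rplp0, Snai2, Notch1 and Kdr, named below. They also hold the PRM-only genes Pbx4, Stmn3, Kdm5c, Ccnb1 and Nfix. The part of this in their calls was not tested.

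The edited genes came first. Kmt2c, the gene under the added guide, had promoter scores of 28 in PRMK replicate 2 and 35 and 34 in PRM, so the promoter was open in both genotypes, and a promoter peak does not test a guide within the gene. Myc had 19 in PRMK replicate 2 and 41 and 15 in PRM. No library had a peak over Rb1 on chromosome 14. In the RNA the edgeR quasi-likelihood test called 0 of 13914 genes (0.0%) at a Benjamini-Hochberg adjusted p under 0.05, 2384 had an unadjusted p under 0.05, and DESeq2 called 1218 (8.75%). RNA is therefore given below as levels, in CPM (counts relative to the TMM-scaled library total). The share of all genes whose groups do not overlap is not given here, so a gene without overlap is only described. Rb1 RNA was 39.97, 44.01 and 17.8 CPM in PRMK and 22.2, 6.95 and 3.38 CPM in PRM, so it was transcribed without a listed peak. Kmt2c RNA was 85.1, 84.4 and 105 CPM in PRMK and 113, 187 and 67.6 CPM in PRM, overlapping groups. The labels of the PRMK RNA libraries list no guide against Kmt2c and name a stranded kit for PRM alone, so library preparation and genotype cannot be told apart in the RNA.

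Epithelial genes were the list with the most PRMK2-only promoters. Of 17 members, 9 had a strong promoter peak in PRMK replicate 2 and 3 in each PRM replicate. PRMK2-only promoters numbered 6 (35.3%, against a background of 3.03%), and no member was PRM-only. They were the adhesion gene Epcam with a score of 25, the keratin genes Krt7 (23) and Krt8 (27), the tight-junction gene Cldn7 (24), the splicing factor gene Esrp1 (24) and the transcription factor gene Ovol1 (18). These scores lay between percentiles 75.5 and 93.1 of the PRMK replicate 2 list. All 6 genes lie on chromosomes with even shares. Weaker peaks of PRMK replicate 2 alone lay at Cldn4 (13), Ehf (14) and St14 (9). Open in all 3 were the claudin gene Cldn3 (38 in PRMK, 49 and 34 in PRM) and the epithelial factors Grhl1 (28, then 49 and 52) and Elf3 (40, then 73 and 82). Cdh1, Krt18, Krt19, Esrp2 and Grhl2 had no promoter peak in any list.

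Neighbouring peaks were counted around Epcam, Krt7, Krt8, Cldn7 and Esrp1 and not around Ovol1. PRMK replicate 2 had more of them than either PRM replicate, though few at some loci. Epcam had 2 in PRMK replicate 2 and 1 and 0 in PRM replicates 1 and 2, and Esrp1 had 3, then 1 and 0. Cldn7 had 5, then 1 and 1. A strong PRM peak lay near Krt7 and Cldn7 in PRM replicate 2 and near Esrp1 in PRM replicate 1. Within 10 kb of Krt8, PRMK replicate 2 had 5 peaks, PRM replicate 1 had 1 and PRM replicate 2 none. Around Krt7 there were 9 peaks in PRMK replicate 2 and 1 in each PRM replicate, the PRM replicate 2 peak at chr15:101413961-101415920 with a score of 29 lying 1558 bp from the start site. That site was thus open in both genotypes just inside the gene.

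**Figure D3:**
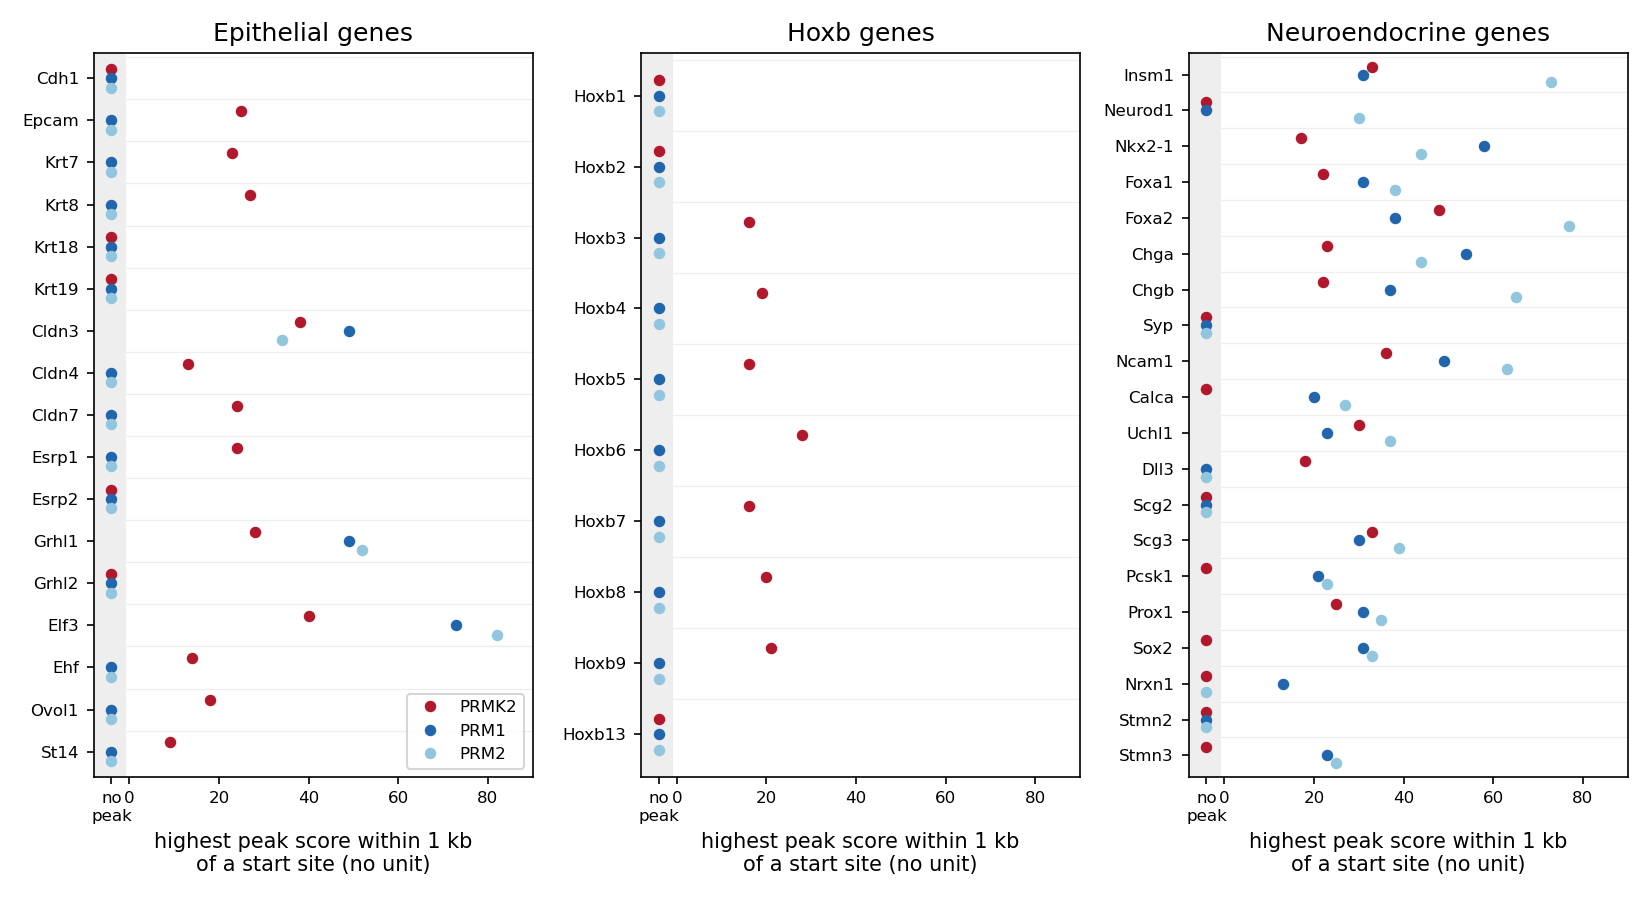
Highest peak score within 1 kb of a start site, or of either gene end where no start site was given (x axis, no unit), for epithelial, Hoxb and neuroendocrine genes, with 1 point per library and points in the grey band for no peak. PRMK replicate 2 is above the band alone at Epcam, Krt7, Krt8, Cldn7, Esrp1 and Ovol1 and at 7 Hoxb genes, while Insm1 and Foxa2 have points of all 3 libraries.

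The CUT&Tag and RNA readouts of the epithelial genes were mixed. All 6 PRMK2-only epithelial promoters carried an H3K4me3 peak in both PRMK and both PRM CUT&Tag libraries. All 6 had a KMT2C peak in both PRMK libraries and in no PRM library, and over the list 14 members had one in both PRMK libraries and 2 in both PRM libraries. The PRMK lists of KMT2C are far longer, as given below. Epcam RNA was 500, 191 and 857 CPM in PRMK and 4.65, 5.21 and 396 CPM in PRM. Krt8 RNA was 832, 229 and 927 CPM in PRMK and 106, 16.6 and 1118 CPM in PRM. For both genes 2 of the 3 PRM libraries lay below every PRMK library and the third PRM library did not. The summed level of the 15 list members in the RNA table was 3683, 1263 and 5266 CPM in PRMK and 737, 108 and 4228 CPM in PRM. Esrp1 was likewise at 235, 101 and 285 CPM in PRMK and at 0, 1.18 and 148 CPM in PRM. The fitted log2 fold changes were 1.93 for Epcam (adjusted p = 0.58, edgeR), 1.34 for Krt7 (0.53) and 2.06 for Esrp1 (0.63). Without PRM library 6, the high one, they were 6.71 for Epcam (adjusted p = 0.10, edgeR) and 8.47 for Esrp1 (0.12). The PRM tumours in the RNA were unlike each other here, and which of these states the ATAC libraries held was not tested.

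The Hoxb cluster was open across its length in PRMK replicate 2 and held 1 peak in PRM. Hox genes encode the homeodomain factors that give cells their position along the body axis. Of 39 Hox genes, 4 were PRMK2-only (10.3%, background 3.03%), and none had a strong PRM peak. All 4 lay in this cluster on chromosome 11: Hoxb4 (score 19), Hoxb6 (28), Hoxb8 (20) and Hoxb9 (21). Hoxb3, Hoxb5 and Hoxb7 had PRMK replicate 2 peaks of 16 each, the lowest score among the 19815 strongest. Of 3958 peaks tied at 16, 588 were taken by position, and those of these genes were not among them. Hoxd1 had a PRM replicate 1 peak of 13, and the other 31 Hox genes had none in any list. Over chr11:96261330-96378254, the cluster with 10 kb on either side, PRMK replicate 2 had 19 peaks, PRM replicate 1 had 1, and PRMK replicate 1 and PRM replicate 2 had none. The Hoxa cluster, treated in the same way, had 1 peak in PRMK replicate 2, 1 in PRM replicate 1 and none in PRM replicate 2.

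The H3K4 marks showed the same picture in other libraries. H3K4me1 peaks over the Hoxb window numbered 10 and 16 in PRMK and 0 and 0 in PRM. H3K4me2 formed a single domain of 88.6 kb in each PRMK library and H3K4me3 a single domain of 87.4 kb in each, and neither mark had a peak there in any PRM library. KMT2C peaks numbered 38 and 35 in PRMK and 0 and 0 in PRM. Both domains were of like length in the PRMK library with the Meis2 guide and in that with the scrambled guide. Hoxb4 RNA was 6.55, 0.835 and 47.7 CPM in PRMK and 0.261, 0.0561 and 0.445 CPM in PRM, and Hoxb6 RNA was 3.78, 0.313 and 51.8 CPM in PRMK and 0 in all 3 PRM libraries. Every PRMK library was above every PRM library for both genes, and the PRMK libraries differed widely among themselves. For Hoxb4 the log2 fold change was 6.19 (adjusted p = 0.21 by edgeR and 4.3e-04 by DESeq2), and 3.82 without PRMK library 3, the highest.

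**Figure D4:**
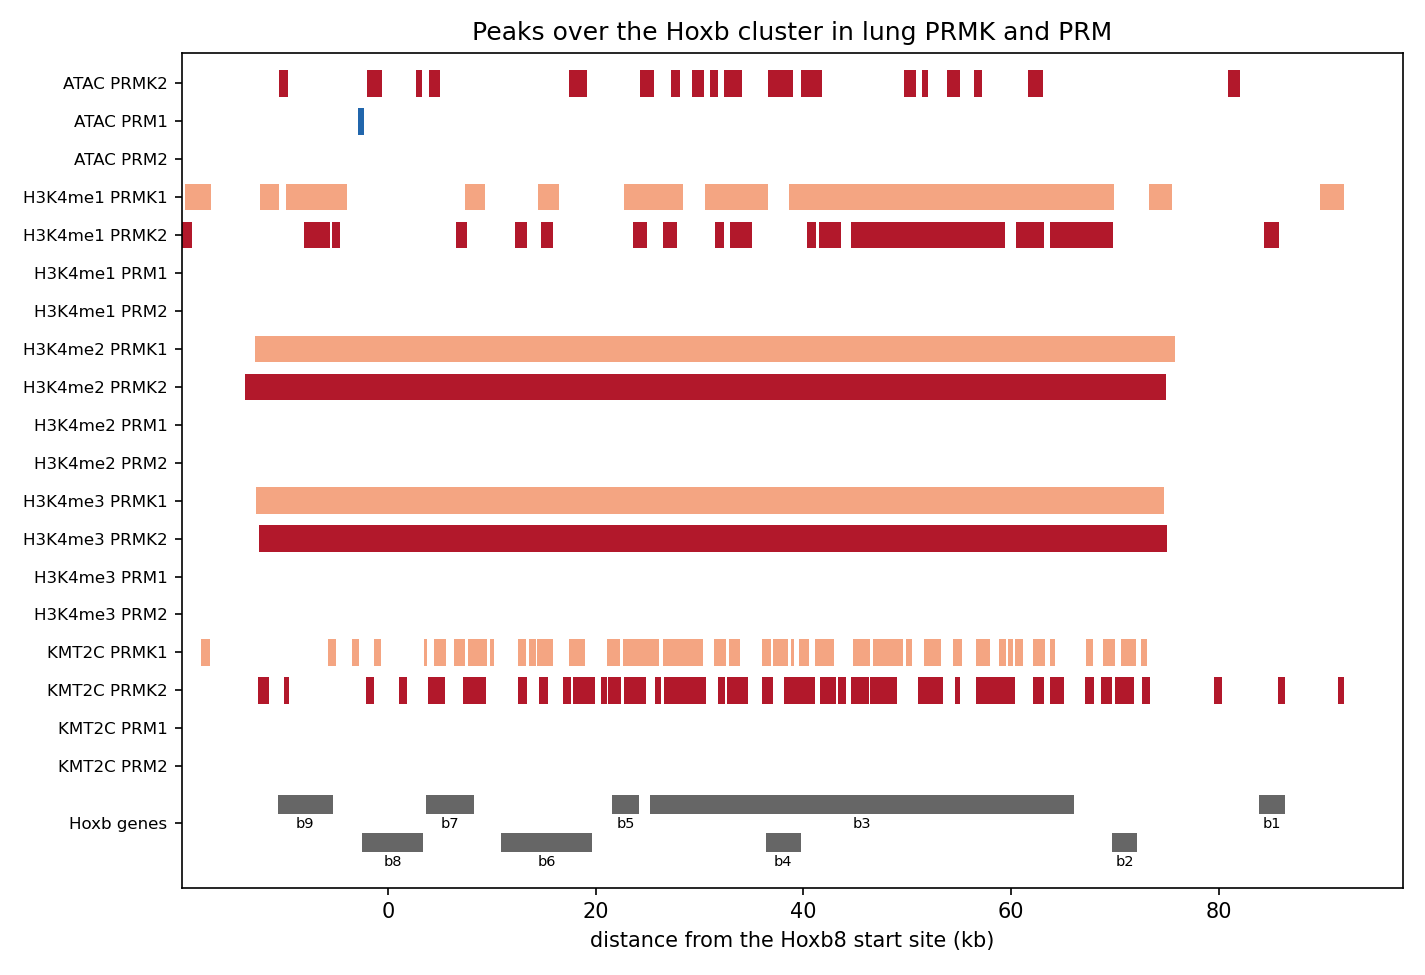
Peaks over the Hoxb cluster, with distance from the Hoxb8 start site on the x axis (kb) and gene bodies in grey at the bottom. There is 1 row per library, except that ATAC of PRMK replicate 1 is not drawn. The ATAC row of PRMK replicate 2 and the H3K4me1, H3K4me2, H3K4me3 and KMT2C rows of PRMK hold peaks across the cluster. PRMK replicate 1 had no ATAC peak there, and of the PRM rows ATAC replicate 1 alone holds one.

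TALE homeobox genes encode cofactors that bind DNA with Hox proteins, and they were split. Of 11 members 1 was PRMK2-only (Meis3, score 17) and 3 were PRM-only, among them Pbx4 (31 and 35 in PRM replicates 1 and 2) and Pknox2 (33 and 19). Open in all 3 lists were Pbx3 (43 in PRMK, 61 and 56 in PRM) and Pknox1 (50, then 67 and 151). Peaks were found in all 3 lists at Meis1 (25, then 20 and 32), Pbx2 (16, then 29 and 33), Tgif1 (30, then 27 and 28) and Tgif2 (17, then 16 and 21) as well. Meis2 had no peak within 1 kb of the 1 start site used here. The nearest, at chr2:116066381-116067610, lay 1762 bp away and was present in all 3 libraries. That peak covered the end of the annotated gene on that side, chr2:116067537. The lack of a promoter peak therefore holds for that start site only. The gene body of Meis2 was the difference: with 10 kb on either side it held 14 peaks in PRMK replicate 2 and 1 in each PRM replicate. H3K4me1 peaks there numbered 19 and 25 in PRMK and 5 and 4 in PRM. Meis1 held 12 peaks in PRMK replicate 2 against 5 and 1 in PRM, with H3K4me1 peaks of 12 and 24 in PRMK against 5 and 5. Meis2 RNA was 139, 215 and 272 CPM in PRMK and 0.889, 1.46 and 17.3 CPM in PRM, with no overlap (log2 fold change 5.02, adjusted p = 0.19 by edgeR). Chromosome 2, where Meis2 lies, is one of the uneven ones, and the part of this in the Meis2 counts was not tested.

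Of 21 neuroendocrine genes, 11 had strong promoter peaks in all 3 longer lists (52.4%, background 24.8%). PRMK replicate 1 had a promoter peak at none of the 21, and Syp, Scg2 and Stmn2 had one in no list. Syp lies on chromosome X, where every list held few peaks. Insm1 and Foxa2, transcription factors of this lineage, scored 33 and 48 in PRMK replicate 2, against 31 and 38 in PRM replicate 1 and 73 and 77 in PRM replicate 2. The granin genes Chga and Chgb and the adhesion gene Ncam1 scored 22 to 36 in PRMK replicate 2 and 37 to 65 in PRM. The notch ligand Dll3 was PRMK2-only (18), and Sox2 (31 and 33 in PRM) and the tubulin-binding Stmn3 (23 and 25) were PRM-only. Calca and Pcsk1 had peaks of 20 to 27 in both PRM replicates and none in PRMK, and Neurod1 had one of 30 in PRM replicate 2 alone. At Sox2 the nearest PRMK replicate 2 peak lay 3376 bp from the start site with a score of 12. Sox2 RNA overlapped, at 76.3, 130 and 72.3 CPM in PRMK and 150, 86.0 and 46.7 CPM in PRM, and H3K4me3 was present at its promoter in all 4 CUT&Tag libraries. The list's summed RNA was 7329, 5971 and 8061 CPM in PRMK and 8499, 5009 and 274 CPM in PRM, so 1 PRM RNA library was low.

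Axon guidance genes leaned towards PRM. Of 15 members, 3 had a strong promoter peak in PRMK replicate 2, against 6 and 8 in PRM replicates 1 and 2, and 3 were PRM-only, against a background of 3.81%: the guidance ligand Slit1 (63 and 41), the semaphorin receptor Nrp2 (34 and 51) and the adhesion gene Nrcam (27 and 23). At Nrp2, with 10 kb on either side, there were 5 peaks in PRMK replicate 2, none of them strong, and 21 and 5 in PRM. Its RNA was 22.03, 43.7 and 28.1 CPM in PRMK and 140, 318 and 240 CPM in PRM, with no overlap (log2 fold change -2.89, adjusted p = 0.18 by edgeR and 9.2e-08 by DESeq2). Here promoter and transcript differed in the same direction, while the Nrp2 promoter carried H3K4me3 in all 4 CUT&Tag libraries. Nrcam carried it in all 4 as well. Slit1, placed by its gene ends, had H3K4me3 in none of the 4 and H3K4me1 in all 4. Whether the Slit1 peak lies at its promoter was not tested.

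Other chromatin and growth genes were split. Among 18 genes of H3K4 methylation, 8 were strong in PRMK replicate 2 and 14 in each PRM replicate, and 3 were PRM-only: the methyltransferase gene Kmt2d (38 and 40) and the demethylase genes Kdm5c (37 and 39) and Kdm1a (40 and 35). Kmt2d RNA was 217, 197 and 181 CPM in PRMK and 298, 338 and 126 CPM in PRM. Among 18 cell cycle genes, 12 were strong in PRMK replicate 2 and 15 and 17 in PRM, and the helicase subunit gene Mcm3 (60 and 47) and the cyclin gene Ccnb1 (26 and 30) were PRM-only. The DNA methyltransferase gene Dnmt3a was open in all 3 (28, then 39 and 34), and its relative Dnmt3l was PRMK2-only (17), the other 8 members of the DNA methylation list being neither PRMK2-only nor PRM-only. Nfix (27 and 38) was PRM-only among 4 nuclear factor I genes. The AP-1 and early response list was strong at 11 of 11 members in PRMK replicate 2 and at 10 and 9 in PRM. None of 5 Tfap2 genes had a promoter peak. Of 12 housekeeping genes, 11 were strong in PRMK replicate 2 and 9 and 10 in PRM. One of them, the ribosomal protein gene Rplp0 on chromosome 5, was PRMK2-only with a score of 30 although its RNA was 1255, 1519 and 1272 CPM in PRMK and 1139, 1795 and 4194 CPM in PRM. A PRMK2-only promoter was thus not by itself a gene silent in PRM.

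Markers of other states and cell types were few. Among 10 genes of mesenchymal transition, Snai2 (30) was PRMK2-only and Cdh2 (33 and 52) PRM-only. Notch1 (20) was PRMK2-only among 14 Notch and YAP genes. No lung lineage marker of 15 fell in either class. Of these, Sftpc, Sftpa1 and Sftpd lie on chromosome 14, where every list held few peaks at all. Among stromal markers, Col1a2 (16) was PRMK2-only among 10 fibroblast genes and Kdr (20) among 10 endothelial genes. The score of 16 is the one at which ties were split by position, so the Col1a2 call rests on that order. The fibroblast genes Col1a1 (26), Thy1 (31) and Pdgfrb (16) had a peak in PRM replicate 1 alone, and the endothelial genes Pecam1 and Cdh5 had no promoter peak in any list. Of 12 immune genes 1 had a strong peak in each library (Cd68), and Ptprc had none. Of 10 hepatocyte genes 1, 1 and 0 had a strong peak in PRMK replicate 2 and PRM replicates 1 and 2, and Alb had none. The summed RNA of 9 fibroblast genes was 97.02, 305 and 72.6 CPM in PRMK and 348, 4.60 and 223 CPM in PRM. That of the endothelial list was 79.6, 23.6 and 206 CPM in PRMK and 38.9, 0.953 and 6.05 CPM in PRM, and that of the immune list 512, 559 and 741 CPM in PRMK and 528, 6.05 and 96.3 CPM in PRM. The part of other cells in the peaks was not tested. Fewer cells of a type and less signal per cell cannot be told apart in bulk libraries.

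The H3K4 marks were then read on the classes as a whole, as the share of regions with a peak in both CUT&Tag libraries of a genotype. The Meis2 guide in 1 of the 2 PRMK libraries of H3K4me2, H3K4me3 and KMT2C applies here too. H3K4me1 lay on 21.0% of distal PRMK2-only peaks in PRMK and 16.1% in PRM. It lay on 58.8% of distal PRM-only regions in PRMK and 81.8% in PRM, and on 67.9% and 70.8% of distal regions of all 3 libraries. PRMK2-only peaks are single peaks and the other classes are merged, wider regions, so shares are compared between genotypes within a class. Taken per library, H3K4me1 was on 73.3% and 60.4% of the distal PRM-only regions in PRMK and on 86.4% and 83.1% in PRM, a difference of means of -17.9 percentage points with no overlap between the genotypes. With an overlap of at least 50% of each interval the difference was 1.42 points. It therefore holds only for the 1 bp overlap. The direction was not particular to PRM-only regions. Over all strong distal peaks of PRM replicate 1, H3K4me1 was on 64.5% and 52.9% in PRMK and 76.9% and 73.9% in PRM. Over those of PRM replicate 2 it was on 58.8% and 46.8% in PRMK and 58.95% and 56.4% in PRM. No test was made over regions, and with 2 libraries against 2 an exact permutation test cannot go below 0.33.

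Promoters differed little in H3K4me3. It lay on 57.6% of PRMK2-only promoters in PRMK and 54.0% in PRM, on 83.7% and 84.8% of PRM-only promoters, and on 98.4% and 98.1% of promoters of all 3 libraries. Most promoters listed as open in 1 genotype alone thus carried the active mark in the other. KMT2C lay on 28.7% of distal PRMK2-only peaks in PRMK and 2.204% in PRM, and on 64.1% and 42.9% of distal PRM-only regions. The KMT2C lists of PRMK were also far longer, with 187682 and 134561 peaks in PRMK and 9949 and 16681 in PRM, although PRMK carries the guide against Kmt2c. Which genotype these lists hold rests on their labels and was not tested. List length moves with this difference and its part was not tested.

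**Figure D5:**
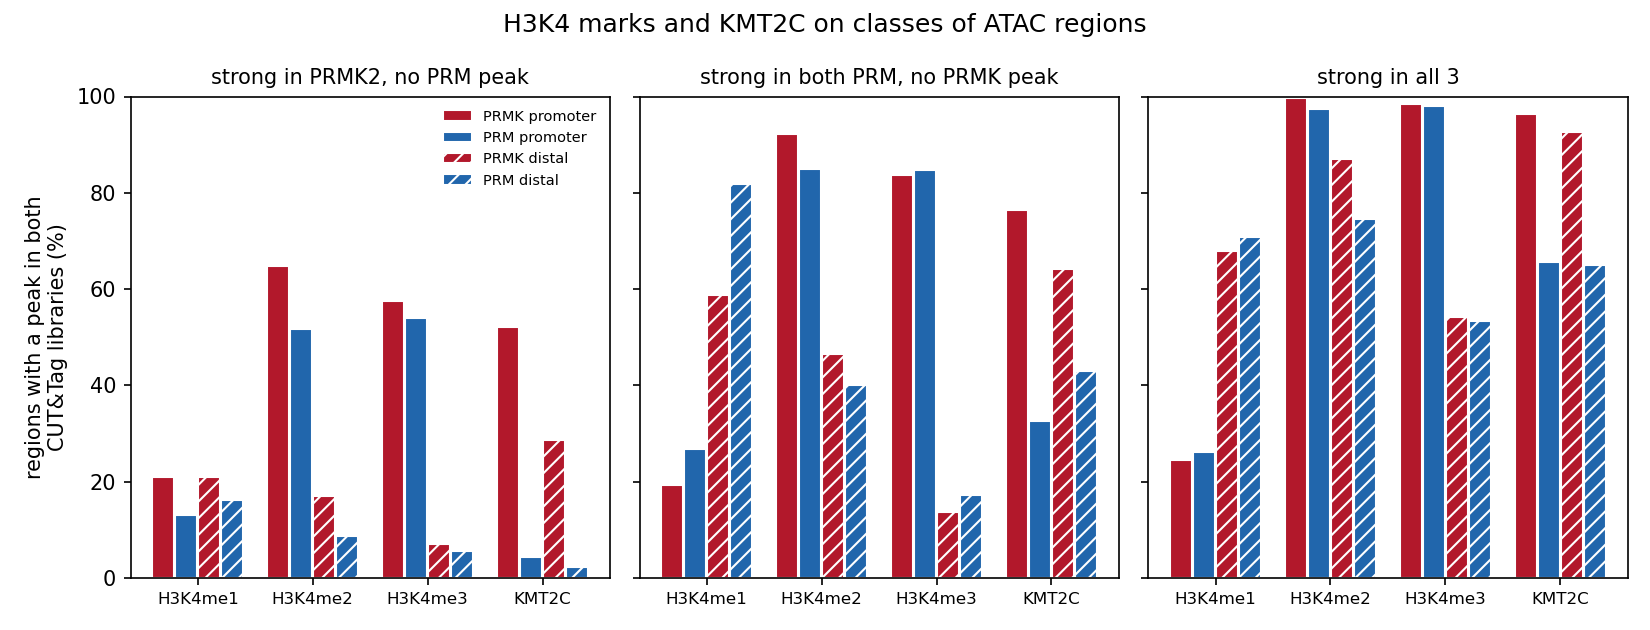
Share of ATAC regions with a peak in both CUT&Tag libraries (percent, y axis) for H3K4me1, H3K4me2, H3K4me3 and KMT2C, in PRMK and PRM, at promoters and distal sites of the 3 classes. On distal PRM-only regions H3K4me1 reaches 58.8% in PRMK and 81.8% in PRM, and H3K4me3 bars of the genotypes differ by a few points in every class.

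RNA levels over the promoter classes differed slightly. Genes with PRMK2-only promoters had a median log2 fold change, PRMK over PRM, of 0.28, with 298 of 500 tested above 0 (59.6%). Genes with PRM-only promoters had a median of -0.14, with 314 of 774 above 0 (40.6%). Over all 13914 genes tested the median was -0.02 and 48.6% were above 0. Genes with no peak in any list had a median of 0.18, near that of the PRMK2-only genes, so the class is not set apart from genes without peaks by this measure. Most genes of either class were transcribed in both genotypes: 89.96% of PRMK2-only genes exceeded a mean of 1 CPM in PRMK and 85.7% in PRM, and of PRM-only genes 96.2% and 96.4%.

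The promoters of the classes differed in base composition. Promoters on chromosome 18 were left out of every class here. Among the 21263 other reference promoters of protein-coding genes the median GC content was 56.3%. It was 59.7% over 676 PRMK2-only, 61.0% over 811 PRM-only and 62.3% over 5854 promoters of all 3 libraries, and 49.0% over 9099 promoters with no peak. The GC box GGGCGG, sought on both strands, was in 54.9% of PRMK2-only, 67.2% of PRM-only and 46.2% of all promoters. The CCAAT box was in 32.0%, 40.4% and 38.2%, and the ETS motif CCGGAAG in 13.5%, 18.7% and 11.6%. The AP-1 motif TGANTCA was in 6.36%, 3.70% and 6.99%, and the MEIS motif TGACAG in 17.6%, 14.6% and 18.7%. In GC content and GC box share, PRMK2-only promoters lay between PRM-only promoters and all promoters. A match in these windows is a description of letters and does not locate a bound factor. One gene can contribute several reference promoters.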

How the data were processed

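ATAC libraries of lung PRMK and PRM (2 each) were compared through the deposited gappedPeak lists. The authors aligned reads with Bowtie2 2.2.1 to mm10, per the submitters' processing notes; no source used here names the peak caller. The ranking used the whole-number score in column 13 of the deposited lists. Column 14 holds no values, and peaks without a score (19 to 28 per list) counted only towards absence. Ties were taken in order along the chromosome. Chromosomes 1 to 19, X and Y were used, except that base composition and motifs of promoters left out chromosome 18. Promoters lay within 1 kb of 48029 RefSeq start sites on GRCm38.p6, with both ends of 7589 genes that have no row in that table. Peaks overlapped by 1 bp or more.

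CUT&Tag intervals come from deposited SEACR lists, per the labels, whose signal columns were not analysed. RNA used the authors' deposited counts (STAR 2.6.0a, per the submitters' processing notes), 12013253 to 24123055 per library, with edgeR 4.0.16 (TMM, filter on low counts, quasi-likelihood test) and DESeq2 1.42.0 in R 4.3.3. PRM RNA columns are numbered 4 to 6 where titles have 3 to 5, and were used as the PRM group. Python 3.11.15 with pandas 2.3.3 was used. Overlap and count steps were tested on simulated data.

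The members, the 20 gene lists and the alternatives were chosen with earlier results of these data known. Named genes were the drivers, TALE members, the 6 strongest promoter and distal regions per class and up to 4 members per list, first those open in 1 genotype. Further members were named after their values were seen, and some members and 1 part of the genotype are not reported here. The intervals cover counting error only. p-values measure only the spread between these samples, which may be technical.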

Additional observations from a re-analysis of the deposited data

How the results depend on the processing

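Several values depended on the number of peaks taken, on the overlap rule and on single libraries. The gap in overlap between genotypes and PRM replicates (-13.3 points at 19815 peaks) was -5.82, -2.17 and -1.50 at 5000, 2000 and 1000 peaks, -10.1 with reciprocal overlap of at least 50%, -17.2 without PRMK replicate 2 (PRMK replicate 1 at 565 peaks) and -13.3 without PRMK replicate 1. Without a PRM replicate no PRM pair is left. The promoter share of PRMK replicate 2 minus the PRM mean (-3.99 points) was 8.33, 7.65 and 6.80 at 5000, 2000 and 1000 peaks, -7.63 without PRM replicate 1 and -0.353 without PRM replicate 2. Without PRMK replicate 2 it was -26.8, which is PRMK replicate 1 minus the PRM mean at 565 peaks. Regions of both PRM replicates and not PRMK (9.84%) were 9.84 to 37.2% with a library left out, 33.0% without PRM replicate 1 and 37.2% without PRM replicate 2, where 1 PRM library suffices. The PRMK2-only share (37.4%) was 6.78, 1.40 and 0.40% at the smaller numbers and 57.1% with reciprocal overlap. The PRM-only share (26.5%) was 10.3, 4.41 and 2.00% at the smaller numbers, 58.7% with reciprocal overlap, 45.3% without PRM replicate 1 and 49.0% without PRM replicate 2. Of all annotated genes with a strong PRMK replicate 2 promoter peak, 10.6% had no PRM peak there, and 3.09, 0.967 and 0.488% at the smaller numbers, 10.6 to 20.6% with a library left out (20.6% without PRM replicate 1, 16.01% without PRM replicate 2). The H3K4me1 difference on distal PRM-only regions (-17.9 points) reversed to 1.42 with reciprocal overlap, and was -24.4 to -11.4 with a library left out. edgeR called 0 genes and DESeq2 1218, and edgeR called 0 to 796 with a library left out, 796 without PRM library 4. With single libraries left out, Sox2 (log2 fold change -0.02) ranged over -0.34 to 0.44, with 0.08 without PRMK library 1, 0.10 without PRMK library 3 and 0.44 without PRM library 4. Kmt2c (-0.42) ranged over -0.71 to 0.019, the last without PRM library 5. The causes were not tested.

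The interval of the thick part and promoter widths of 500 bp and 2.5 kb left each ATAC value above within 1.5 times or 1 SD. So did 3 alternatives chosen after seeing the data: random order of ties, the start-site table alone, and leaving out the 10 uneven chromosomes. Promoter width and the start-site table do not enter the overlap gap, the region patterns or the shares of PRMK2-only peaks and PRM-only regions. Those values could not move with them. The setting of all sequences took the same peaks as the main one, so it tested nothing. Ranking by column 14 could not be run because the column holds no values, and windows of 200 and 500 bases at peak centres were not run because no genome sequence was used here. No paired analysis was possible because the only test on the ATAC libraries was an exact permutation of 1 share per library, 2 against 2, with no model to hold a block, and the RNA groups share fewer than 2 replicate numbers. Read depth of the ATAC libraries is unknown, so a site without a peak is not shown to be closed.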

Other observations

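A stretch of chromosome 8 held an unusual density of PRMK2-only peaks. In the windows 46 to 47, 47 to 48 and 48 to 49 Mb, PRMK replicate 2 had 124, 145 and 111 peaks, against 5, 2 and 0 in PRM replicate 1 and 14, 5 and 0 in PRM replicate 2. Together they held 48, 68 and 90 of the 7416 PRMK2-only peaks. The genes there include Dctd, a deoxycytidylate deaminase, which was the nearest gene to 28 distal PRMK2-only peaks, Enpp6 (13) and Irf2 (7). In the same 3 windows H3K4me1 peaks numbered 42 and 42, 8 and 5, and 3 and 6 in PRMK, against 20 and 14, 0 and 0, and 1 and 1 in PRM. In the window from 48 Mb H3K4me3 peaks numbered 4 and 3 in PRMK and 4 and 10 in PRM, and KMT2C peaks 44 and 28 in PRMK and 0 and 0 in PRM, whose KMT2C lists are shorter. No protein-coding gene was the nearest to more than 4 distal PRM-only regions, and other genes were not counted.

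PRMK replicate 1 held 56 of its 565 scored peaks within chr1:88211421-88311010, around Hjurp. PRMK replicate 2 had 26 peaks over the same stretch, and PRM replicates 1 and 2 had 19 and 39.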
